A study of Mus musculus with 10 samples.

Results

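A set of 10 genes that report on and restrain the ERK pathway was followed through whole melanoma tumors that differed in cyclooxygenase (COX) genotype and in the presence of natural killer (NK) cells. It holds the phosphatase genes Dusp4 and Dusp6, the Sprouty genes Spry2 and Spry4, the transcription factor genes Etv4, Etv5, Fosl1 and Egr1, and the outputs Phlda1 and Ccnd1. These 10 genes were taken by symbol as well-known MAPK targets in melanoma, but with earlier results of these data known. They come from a table of 45706 genes, and each was among the 14550 genes that passed the filter on low counts. The libraries came from bulk tumors of C57BL/6 hosts aged 8 weeks, collected on day 4 after subcutaneous implantation. They formed 3 groups. Ptgs+/+ tumors (n = 4) grew from COX-competent cells in untreated mice. Ptgs-/- tumors (n = 3) grew in untreated mice from cells made deficient, by CRISPR/Cas9, for Ptgs1 and Ptgs2, which encode COX-1 and COX-2. NK-depleted Ptgs-/- tumors (n = 3) grew from the same deficient cells in mice given, according to the labels, 200 µg of anti-NK1.1 (clone PK136) with 30 µg of an antibody to asialo-GM1 on days 0 and 2. The study's methods give another schedule for this depletion, and the labels name no control antibody for the untreated mice. The cancer cells of all 3 groups derive from 1 parental melanoma line with a constitutively active ERK pathway. That line came from Braf V600E, p16INK4a-/- mice in which Tyr::CreERT2 had switched on the Braf allele. Host cells in these bulk tumors do not come from it.

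In this pathway RAS proteins activate RAF kinases, RAF activates MEK, and MEK activates ERK, which phosphorylates transcription factors and so switches on a set of target genes. Part of that set feeds back: DUSP phosphatases remove phosphate from ERK and related kinases, and Sprouty and SPRED proteins act on the steps around RAS and RAF. In melanoma with mutant BRAF the transcripts of such targets are commonly read as the output of the pathway, because RAF signals there without RAS. ERK phosphorylation was not measured in these libraries, so the values below are transcript levels only.

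Dusp6 and Spry2 are those of the 4 feedback genes in the set that passed the test in the comparisons below, and the bases before their start sites are shown because ETS factors, among them the products of Etv4 and Etv5, bind to a GGAA core in ERK-responsive promoters. Windows from RefSeq's table for GRCm38.p6 were used for 3 of the 10 genes. Etv5, which did not pass the test, is among them, and its windows, not printed, held 0 and 4 such cores. Each sequence holds the 250 bases before the start site, 5′ to 3′ on the strand of the gene, with capitals at GGAA on either strand (TTCC is its reverse complement). The Dusp6 window is chr10:99262981-99263230 on the plus strand and the Spry2 window is chr14:105896820-105897069 on the minus strand.
Dusp6: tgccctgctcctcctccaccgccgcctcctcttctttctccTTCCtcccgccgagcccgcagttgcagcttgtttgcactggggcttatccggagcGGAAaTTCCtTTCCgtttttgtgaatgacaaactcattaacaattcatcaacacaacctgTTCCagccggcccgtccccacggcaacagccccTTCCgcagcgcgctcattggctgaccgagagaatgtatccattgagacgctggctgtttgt
Spry2: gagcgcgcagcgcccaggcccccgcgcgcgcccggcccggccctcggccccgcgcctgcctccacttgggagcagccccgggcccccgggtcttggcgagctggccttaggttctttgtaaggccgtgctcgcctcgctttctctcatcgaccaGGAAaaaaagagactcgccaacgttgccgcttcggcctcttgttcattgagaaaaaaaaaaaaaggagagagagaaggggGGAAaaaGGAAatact
The core matched 6 times in the Dusp6 window and 3 times in that of Spry2. Such a match is common, since 93.4% of 32851 promoter windows of this length held at least 1, with a median of 3. The longer ETS form CCGGAA, which contains the core and was found in 12% of windows, matched neither, and nor did the AP-1 site TGANTCA (6.75%), the cyclic AMP response element TGACGTCA (1.55%), its shorter form TGACG (17.8%) or the CArG box (1.47%), all searched on both strands. These are matches of letters in these windows and say nothing of binding.

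The libraries held between 8150556 and 12839174 counts. Levels are given as CPM, counts scaled to the total of the library, and 3 counts, the floor used here, corresponded to 0.234 to 0.368 CPM, a limit that covers counting error only. QuantSeq reads come from the 3′ end of a transcript, so levels do not scale with gene length. Ptgs+/+ replicate 3 and Ptgs-/- replicate 1 stood apart from the rest: of 10753 genes with a mean over 5 CPM, 191 in the former and 116 in the latter lay under 50% of the lowest other library, against 0 to 23 in each of the others. The targeted genes were lower in the Ptgs-/- groups: Ptgs2 stood at 346.6, 290.1, 94.4 and 282.8 CPM in Ptgs+/+ tumors, at 74.8, 27.2 and 27.0 in Ptgs-/- tumors and at 49.3, 40.2 and 45.0 in NK-depleted Ptgs-/- tumors, and Ptgs1 averaged 152, 94.0 and 96.5 CPM in the same order. Levels in whole tumors include host cells, so they cannot show the knockout itself. Ncr1, an NK cell receptor gene, averaged 0.946, 4.81 and 0 CPM. Of 10 melanocytic markers, Mlana, Pmel, Tyr, Tyrp1 and Dct were at or near 0 in every group and Mitf averaged 21.7 to 28.9 CPM, so the pigment genes of the labelled tissue were all but absent. The labels do not say that each tumor came from a separate mouse, so p-values measure the spread between these tumors. In bulk tumors, fewer cells of a type and less RNA per cell cannot be told apart.

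Ptgs-/- tumors were first compared with Ptgs+/+ tumors, which asks how the loss of COX in the cancer cells changed the pathway's targets. In Ptgs-/- tumors 4 of the 10 genes fell and none rose: the feedback genes Dusp6 and Spry2, the immediate-early gene Egr1 and Phlda1. Genes were called with edgeR's quasi-likelihood test at an adjusted p (Benjamini-Hochberg, over all 14550 genes) at or under 0.05, and by this rule 23.1% of all genes differed, 12.1% higher and 11% lower. The median log2 fold change of the 10 genes was −0.19, against −0.01 over all genes tested. None of the 10 reached the study's additional threshold of an absolute log2 fold change of 1.5, which 4.15% of genes passed together with the adjusted p. The libraries of both groups did not overlap for 3 of the 10 genes (Dusp4, Egr1 and Phlda1), a pattern seen in 30.6% of all genes.

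**Figure D1:**
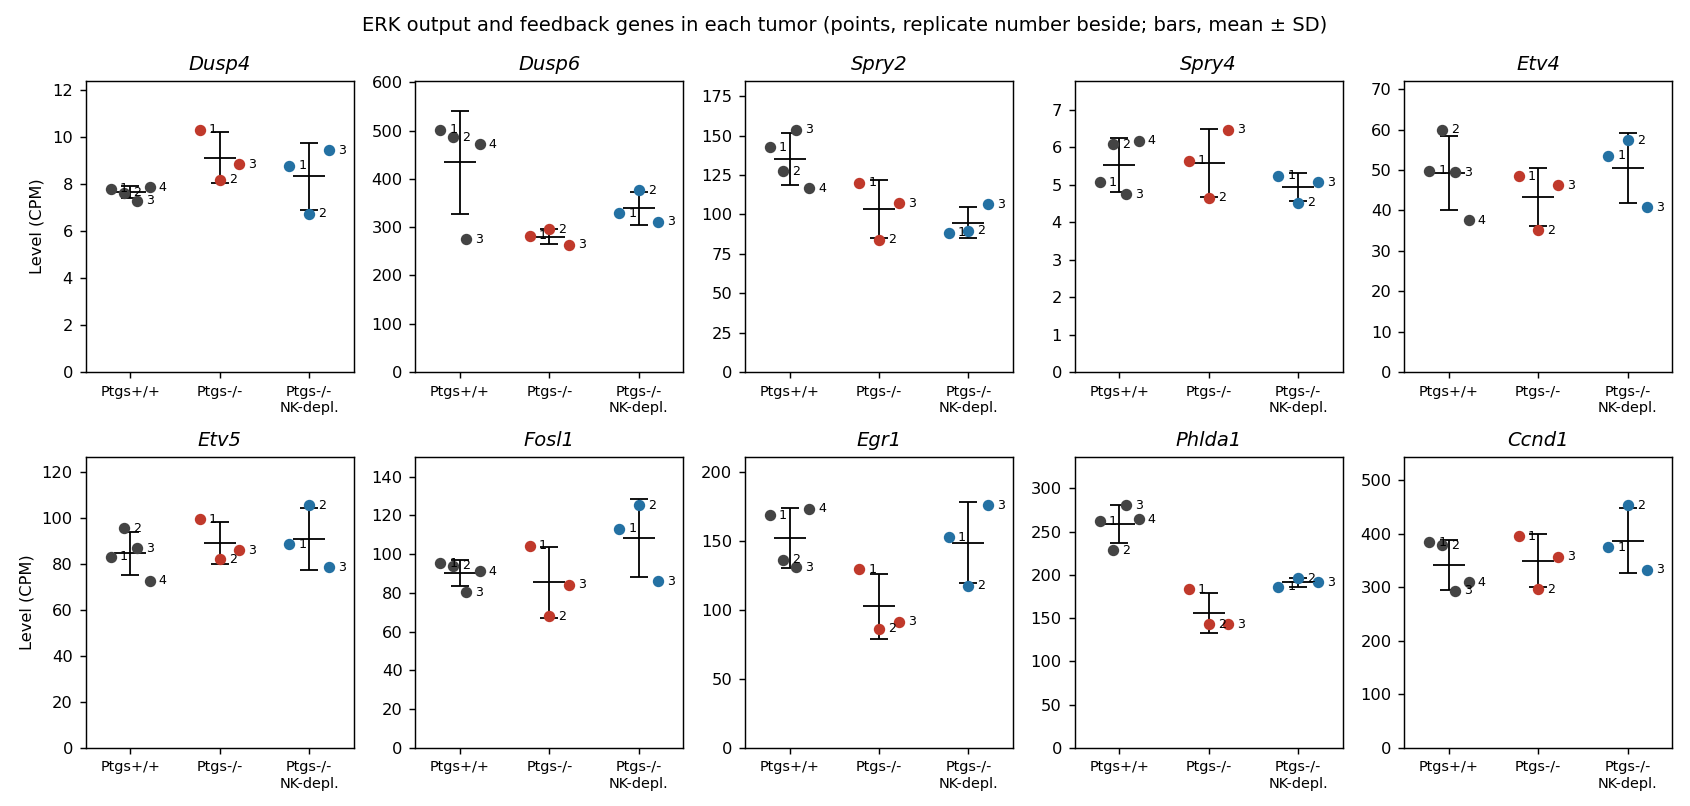
Levels of the 10 genes in every tumor, in CPM on axes that start at 0; points are tumors with their replicate number, and bars are the mean ± SD of Ptgs+/+ (n = 4), Ptgs-/- (n = 3) and NK-depleted Ptgs-/- tumors (n = 3). All Ptgs+/+ tumors lie above all others for Phlda1 (228.5 CPM or more against 196 or less), and Ptgs+/+ replicate 3 lies with the Ptgs-/- tumors for Dusp6 (275.8 CPM).

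Among the feedback genes, Dusp6 encodes a cytoplasmic phosphatase specific to ERK (ENSMUSG00000019960, GRCm38 chromosome 10 from 99263231 to 99267489, plus strand). It stood at 502.4, 486.7, 275.8 and 472.5 CPM in the 4 Ptgs+/+ tumors, at 282.2, 295.6 and 264.1 in Ptgs-/- tumors and at 328.9, 377.3 and 311.4 in NK-depleted Ptgs-/- tumors. Ptgs+/+ replicate 3 was the exception in its group, level with the Ptgs-/- tumors, and the other 3 Ptgs+/+ tumors lay above every tumor of the other groups. Dusp6 fell in Ptgs-/- against Ptgs+/+ tumors by a log2 fold change of −0.69 (SE, standard error, 0.18, adjusted p = 0.0189, edgeR), that is to 0.621 of the Ptgs+/+ level. The call was lost without Ptgs+/+ replicate 1 or 2 or without Ptgs-/- replicate 2 or 3, each left out in turn (adjusted p = 0.0531 to 0.0816, edgeR). Without Ptgs+/+ replicate 3 and Ptgs-/- replicate 1, both left out after the data had been seen, it was −0.84 (adjusted p = 0.00054, edgeR). It was also lost among tumors whose titles carry the first of 2 codes, of unstated meaning (3 Ptgs+/+ and 2 Ptgs-/-, log2 fold change −0.57, adjusted p = 0.132, edgeR).

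Spry2 encodes an inhibitor of signaling from receptor tyrosine kinases to RAS and RAF (ENSMUSG00000022114, chromosome 14 from 105891947 to 105896819, minus strand). Its level was 142.7, 127.2, 153.8 and 116.7 CPM in Ptgs+/+ tumors, 120.1, 83.9 and 106.9 in Ptgs-/- tumors and 88.4, 89.6 and 106.5 in NK-depleted Ptgs-/- tumors. Only the lowest Ptgs+/+ tumor, replicate 4, lay within the range of the Ptgs-/- tumors. The log2 fold change of −0.44 (SE 0.14, adjusted p = 0.0406, edgeR) was close to the threshold and passed it in 8 of 21 alternatives. It was lost when any 1 library was left out other than Ptgs+/+ replicate 4 and Ptgs-/- replicate 1, and its adjusted p reached 0.173 when Ptgs-/- replicate 2 was missing (log2 fold change −0.30, edgeR). In the first code alone it was −0.49 (adjusted p = 0.0749, edgeR).

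Dusp4 and Spry4, the nuclear phosphatase and the second Sprouty gene, were much less abundant than their relatives and did not pass the test. Dusp4 (ENSMUSG00000031530, chromosome 8 from 34807297 to 34819894, plus strand) lay between 7.29 and 7.85 CPM in Ptgs+/+ tumors and at 10.3, 8.17 and 8.85 CPM in Ptgs-/- tumors, with a log2 fold change of 0.19 and a 95% confidence interval of −0.16 to 0.55. It is the 1 gene of the 10 whose Ptgs-/- tumors all lay above all Ptgs+/+ tumors. Spry4 lay between 4.74 and 6.17 CPM and between 4.66 and 6.47 CPM in these groups, with an interval of −0.44 to 0.37 and a sign that turned from −0.04 to 0.03 under scaling by library size alone. Dusp4 had 842 counts and Spry4 548 over all 10 libraries.

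The transcription factors of the set did not move as a group. Egr1, an immediate-early gene that encodes a zinc finger factor, stood at 168.5, 136.3, 130.8 and 173.3 CPM in Ptgs+/+ tumors and at 129.6, 86.2 and 91.5 in Ptgs-/- tumors. Every Ptgs-/- tumor was below every Ptgs+/+ tumor, although the nearest of them, at 129.6 and 130.8 CPM, were close. The log2 fold change was −0.63 (SE 0.17, adjusted p = 0.0234, edgeR). It was −0.89 without Ptgs+/+ replicate 3 and Ptgs-/- replicate 1 (adjusted p = 0.00221, edgeR). These were the lowest Ptgs+/+ and the highest Ptgs-/- tumor for Egr1, left out after the data had been seen, so a wider difference followed. In the first code alone the log2 fold change was −0.45 and the call was lost (adjusted p = 0.181, edgeR). The call was also lost without Ptgs+/+ replicate 1 or 4 or without Ptgs-/- replicate 2 or 3 (adjusted p = 0.0539 to 0.122, edgeR).

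Etv4, Etv5 and Fosl1 differed by less than the spread between tumors. Etv4 (ENSMUSG00000017724, chromosome 11 from 101769742 to 101785371, minus strand) and Etv5 (ENSMUSG00000013089, chromosome 16 from 22381309 to 22439719, minus strand) encode ETS factors of the PEA3 family, and Fosl1 (ENSMUSG00000024912, chromosome 19 from 5447547 to 5455946, plus strand) encodes FRA1, a partner of JUN in AP-1. Etv4 averaged 49.2 ± 9.18 CPM (SD, n = 4) with COX and 43.3 ± 7.17 (SD, n = 3) without it, a log2 fold change of −0.25 with an interval of −0.65 to 0.15. Etv5 averaged 84.5 ± 9.46 (SD, n = 4) and 89.0 ± 9.12 CPM (SD, n = 3), with an interval of −0.28 to 0.31. Fosl1 averaged 90.2 ± 6.88 (SD, n = 4) and 85.6 ± 18.3 CPM (SD, n = 3), with an interval of −0.49 to 0.22. The intervals of Etv4 and Fosl1 include the log2 fold change of Spry2, and none of the 3 reaches that of Dusp6.

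Phlda1 encodes a protein with a pleckstrin homology-like domain and follows ERK activity in many tumor cells (ENSMUSG00000020205, chromosome 10 from 111506286 to 111508645, plus strand). Its level was 262.2, 228.5, 280.5 and 264.7 CPM in Ptgs+/+ tumors, 183.1, 142.8 and 142.6 in Ptgs-/- tumors and 186.1, 196.0 and 191.4 in NK-depleted Ptgs-/- tumors. The 3 groups did not overlap, with Ptgs+/+ highest and Ptgs-/- lowest, a pattern that was not counted over all genes. The nearest Ptgs-/- and NK-depleted tumors, at 183.1 and 186.1 CPM, were close, and those groups did not differ by the test (adjusted p = 0.327, edgeR). Phlda1 fell in Ptgs-/- against Ptgs+/+ tumors by a log2 fold change of −0.79 (SE 0.11, adjusted p = 0.000763, edgeR), to 0.579 of the Ptgs+/+ level. This call held under each of 21 alternatives (adjusted p from 1.62e-08 to 0.0125, edgeR and DESeq2), the first code alone included (log2 fold change −0.68). The second code holds 1 Ptgs+/+ tumor and 1 Ptgs-/- tumor and no NK-depleted one. There Phlda1 stood at 264.7 and 142.6 CPM, Dusp6 at 472.5 and 264.1, Egr1 at 173.3 and 91.5 and Spry2 at 116.7 and 106.9. Each was lower in the Ptgs-/- tumor. Both tumors were part of the fit that called these genes, so the pair is not a separate test of them. Among the genes not called, Dusp4, Spry4, Etv4, Etv5 and Ccnd1 were higher in this Ptgs-/- tumor and Fosl1 was lower.

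Ccnd1 encodes cyclin D1, which couples ERK signaling to entry into the cell cycle (ENSMUSG00000070348, chromosome 7 from 144929931 to 144939925, minus strand). Its mean was 341.7 ± 46.9 CPM (SD, n = 4) where COX was present and 349.6 ± 49.6 (SD, n = 3) where it was lost, and the groups overlapped over nearly their whole range. The interval of the difference was −0.35 to 0.30 on the log2 scale, around a value of −0.03 that became 0.03 under scaling by library size alone. The 10 proliferation markers, Mki67, Top2a, Cdk1 and others, were by contrast all lower in Ptgs-/- tumors by the same test, with a median log2 fold change of −1.06.

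**Figure D2:**
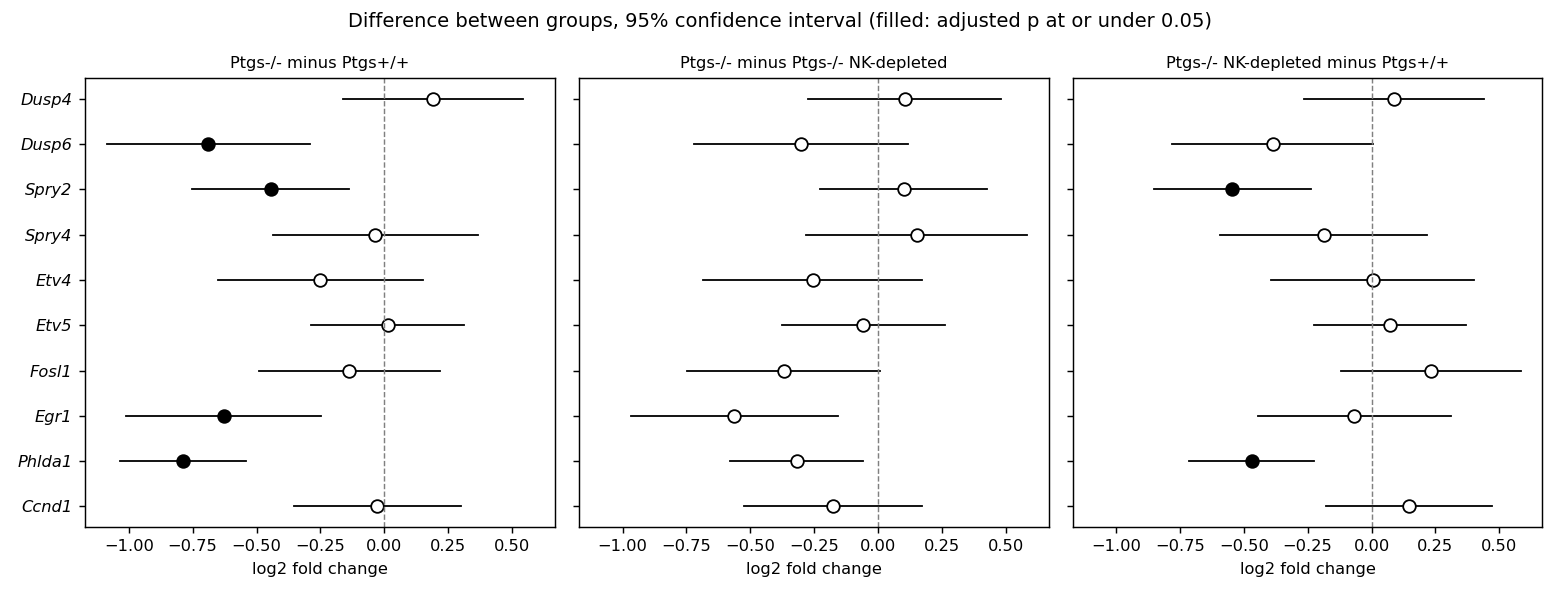
Log2 fold change of each gene in the 3 comparisons, with 95% confidence intervals of the single fit, not adjusted for the number of genes; filled points have an adjusted p at or under 0.05 (edgeR). In Ptgs-/- against Ptgs+/+ tumors the filled points are Dusp6, Spry2, Egr1 and Phlda1, from −0.44 to −0.79, no point is filled in the middle panel, and Spry2 and Phlda1 are filled on the right.

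Ptgs-/- tumors were next set against NK-depleted Ptgs-/- tumors, which asks what the presence of NK cells added. Both comparisons share the Ptgs-/- tumors, so they are not independent. None of the 10 genes passed edgeR's test, nor DESeq2's, and 2 had an unadjusted p under 0.05, Egr1 and Phlda1. Over all genes 1.44% passed by adjusted p and 1.15% with the size threshold as well. The median log2 fold change of the 10 was −0.22 (−0.01 over all genes), and 2 of them, Dusp6 and Phlda1, were lower in every Ptgs-/- tumor than in every NK-depleted one, a separation that 17.6% of all genes showed in one direction or the other.

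Egr1 had the largest difference of the 10 in this comparison. It stood at 152.5, 117.6 and 175.8 CPM in NK-depleted Ptgs-/- tumors, on both sides of the range of Ptgs+/+ tumors, and overlapped the Ptgs-/- tumors only through Ptgs-/- replicate 1 at 129.6 CPM. The log2 fold change was −0.56 (95% confidence interval −0.97 to −0.16, adjusted p = 0.248, edgeR). Without Ptgs-/- replicate 1 it was −0.78 and passed (adjusted p = 0.04, edgeR), and in the first code alone it was −0.45 (adjusted p = 0.515, edgeR). The log2 fold change of Phlda1 was −0.32 (interval −0.58 to −0.06, adjusted p = 0.327, edgeR). With Ptgs+/+ replicate 3 and Ptgs-/- replicate 1 left out, after the data had been seen, it was −0.45 (adjusted p = 0.0225, edgeR). Ptgs-/- replicate 1 was the highest tumor of its group for Phlda1.

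The remaining genes did not pass the test in this comparison. Fosl1 was at 113.2, 125.3 and 86.1 CPM with NK cells depleted, a log2 fold change of −0.37 (interval −0.75 to 0.01). The values for Dusp6 (−0.30, interval −0.72 to 0.12), Etv4 (−0.26, −0.68 to 0.17), Ccnd1 (−0.18, −0.53 to 0.17) and Etv5 (−0.06, −0.38 to 0.26) were also below 0. Those for Spry4 (0.15, −0.28 to 0.59), Dusp4 (0.10, −0.27 to 0.48) and Spry2 (0.10, −0.23 to 0.43) were above 0. Each of these intervals includes 0.

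In NK-depleted Ptgs-/- tumors against Ptgs+/+ tumors, 2 of the 10 genes fell and none rose. The Ptgs+/+ mice were untreated, so genotype and antibody treatment differ together here and cannot be told apart. By adjusted p 12.5% of all genes differed, 6.63% higher and 5.87% lower, with 2.71% past the size threshold as well, and none of the 10 was past that threshold. Spry2 fell by a log2 fold change of −0.55 (SE 0.14, adjusted p = 0.0272, edgeR) and Phlda1 by −0.47 (SE 0.11, adjusted p = 0.0187, edgeR). For both genes every NK-depleted tumor was below every Ptgs+/+ tumor, and 27.1% of all genes were separated in this way. In the first code alone the values were −0.61 for Spry2 (adjusted p = 0.0315, edgeR) and −0.46 for Phlda1 (adjusted p = 0.0411, edgeR). The Spry2 call was lost without Ptgs+/+ replicate 1 or 2 or NK-depleted replicate 1 or 2 (adjusted p up to 0.108, edgeR), and that of Phlda1 without Ptgs+/+ replicate 1 or any 1 of the NK-depleted tumors (adjusted p up to 0.0767, edgeR).

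The log2 fold change of Dusp6 was −0.39 in the same comparison (interval −0.78 to 0.01, adjusted p = 0.195, edgeR), and it passed without Ptgs+/+ replicate 3, the tumor with 275.8 CPM (−0.55, adjusted p = 0.00548, edgeR). Egr1 averaged 148.6 ± 29.3 CPM (SD, n = 3) against 152.2 ± 21.8 (SD, n = 4) in Ptgs+/+ tumors, a log2 fold change of −0.07 with an interval of −0.44 to 0.31. The median over the 10 genes was −0.03 (−0.01 over all genes) and changed sign, to 0.002, under scaling by library size alone. Values for the other genes ran from −0.19 for Spry4 to 0.23 for Fosl1. The order of group means was thus Ptgs+/+, NK-depleted and Ptgs-/- for Dusp6, Egr1 and Phlda1, but Ptgs+/+, Ptgs-/- and NK-depleted for Spry2, where both Ptgs-/- groups did not differ beyond their spread (interval −0.23 to 0.43).

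Tumors also differed within groups over many of the 10 genes. Ptgs-/- replicate 1 was the highest tumor of its group for 8 of the 10 genes and Ptgs-/- replicate 2 the lowest for 8, with median log2 deviations of 0.19 and −0.23 from the mean of the group. Among Ptgs+/+ tumors, replicate 3 was lowest for 6 genes and highest for 2, Spry2 and Phlda1. Dusp6 was its farthest gene, and Dusp6 was also the exception among the genes of Ptgs-/- replicate 2, where it was the highest of the group. Between tumors, the highest and lowest of the 10 libraries differed from 1.43-fold for Spry4 to 2.04-fold for Egr1.

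**Figure D3:**
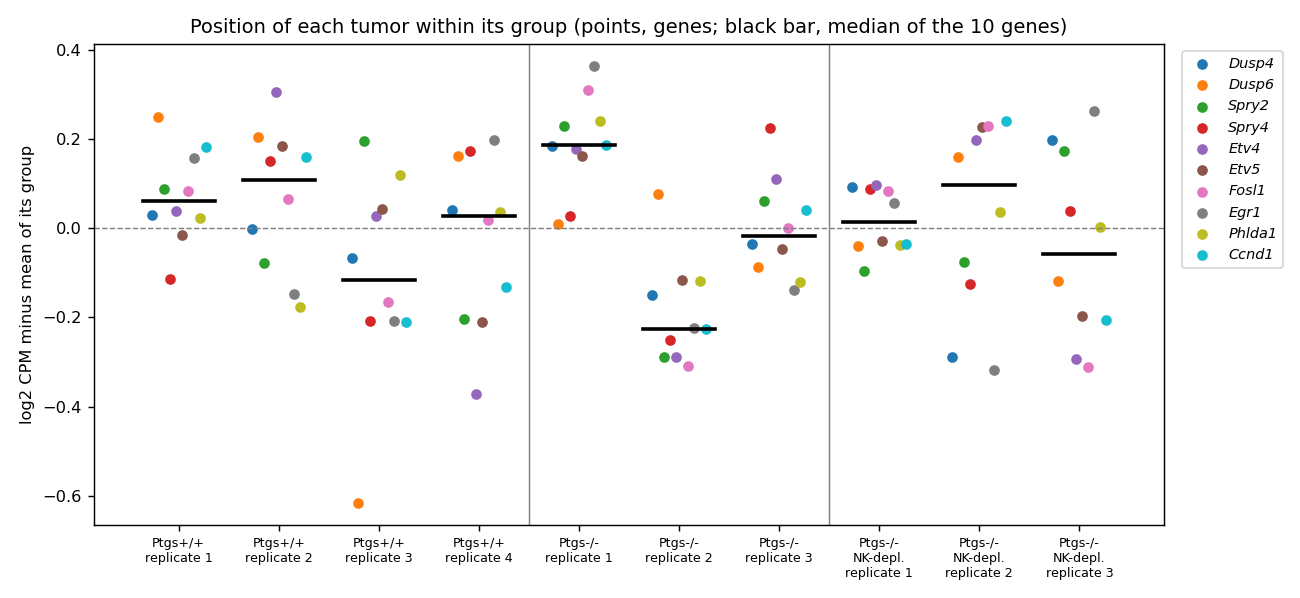
Log2 CPM of each gene minus the mean of its group, by tumor; points are the 10 genes and black bars their median. Ptgs-/- replicates 1 and 2 sit above and below 0 with medians of 0.19 and −0.23, and the lowest point of all is Dusp6 in Ptgs+/+ replicate 3.

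Dusp6 was chosen to ask which of the 14550 genes had the most similar profile over the 10 libraries, measured as the root mean square difference of log2 CPM after centring each gene. They were Wdr77 (0.067), Kif11 (0.092), Kmt5a (0.097), Actn4 (0.097) and Ankrd13c (0.105). Wdr77, which encodes a partner of the arginine methyltransferase PRMT5, stood at 96.0, 100.8, 56.0 and 92.3 CPM in Ptgs+/+ tumors, low in replicate 3 as Dusp6 was. In the Ptgs-/- groups its means were 59.2 ± 4.43 CPM (SD, n = 3) with NK cells present and 68.8 ± 6.82 (SD, n = 3) with NK cells depleted. Kif11 encodes a mitotic kinesin, Kmt5a a histone H4 methyltransferase and Actn4 an actinin. The nearest of the 10 genes was Phlda1, at rank 1936 of all genes (0.302), so none of the other 9 was close to Dusp6 by this measure. The low Dusp6 value in Ptgs+/+ replicate 3 (275.8 CPM) enters this measure, which favors genes that were low in that tumor. Within the Ptgs+/+ group Kif11, Kmt5a, Actn4 and Ankrd13c were lowest there as well.

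The rest of the pathway was read from 4 lists, counted by the same test. Of 21 other feedback regulators tested, 6 differed in Ptgs-/- against Ptgs+/+ tumors, 2 higher and 4 lower, with a median log2 fold change of −0.23. The 6 are 28.6% of the list, close to the 23.1% of all genes called in this comparison. Spry1, another Sprouty gene, fell by 0.88 on the log2 scale (adjusted p = 0.0168, edgeR), from a mean of 5.69 to 3.20 CPM. The SPRED genes Spred3 and Spred1, whose products hold back RAF activation, fell by 0.67 and 0.63 (adjusted p = 0.0115 and 0.00651, edgeR). Dusp10, a phosphatase that acts mainly on JNK and p38, went the other way: it stood at 5.84, 4.84, 4.39 and 7.11 CPM in Ptgs+/+ tumors and at 19.6, 9.10 and 10.6 in Ptgs-/- tumors, a rise of 1.18 (adjusted p = 0.0105, edgeR).

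Of 22 other outputs, 9 differed, 1 higher and 8 lower, and the median was −0.51. The 9 are 40.9% of the list, beside 23.1% of all genes called in this comparison, a difference that was not tested. Ereg, which encodes the EGF receptor family ligand epiregulin, stood at 163.3, 164.2, 134.9 and 109.1 CPM in Ptgs+/+ tumors, at 39.1, 21.6 and 27.3 in Ptgs-/- tumors and at 37.5, 44.4 and 38.1 with NK cells depleted. All 6 Ptgs-/- tumors were therefore far below the lowest Ptgs+/+ tumor, and the log2 fold change of Ereg was −2.35 (SE 0.22, adjusted p = 6.39e-05, edgeR). Areg, which encodes amphiregulin, averaged 38.3 and 19.0 CPM in Ptgs+/+ and Ptgs-/- tumors, a log2 fold change of −1.07 (adjusted p = 0.00272, edgeR). Plaur, the urokinase receptor gene, fell by 0.97, and Etv1, the third PEA3 family gene, fell by 0.66 (adjusted p = 0.011 and 0.00518, edgeR), whereas the Etv4 and Etv5 values given above did not pass. Ccnd2, which encodes cyclin D2, was the 1 gene of this list that rose, from a mean of 465.1 to 748.5 CPM (log2 fold change 0.63, adjusted p = 0.00638, edgeR).

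**Figure D4:**
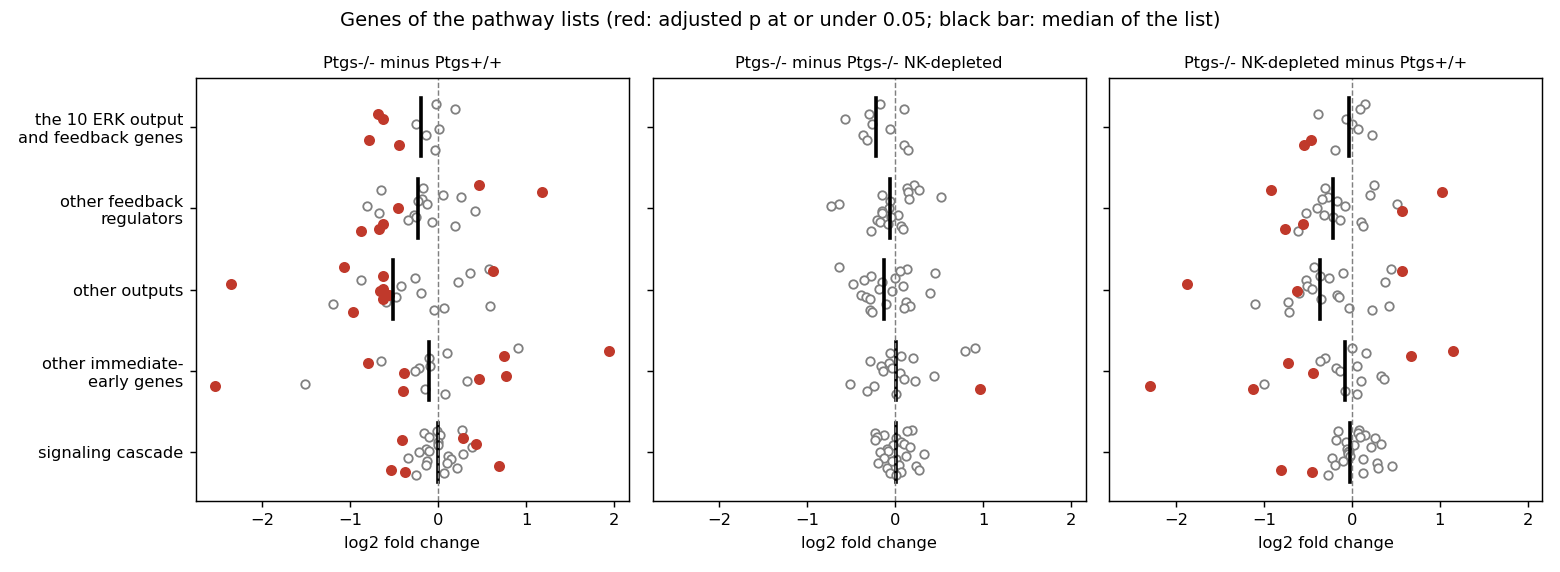
Log2 fold change of every gene tested in the 5 lists, for the 3 comparisons; each point is a gene, red where its adjusted p is at or under 0.05 (edgeR), and black bars are list medians. In Ptgs-/- against Ptgs+/+ tumors the medians are −0.19 for the 10 genes, −0.23 for other feedback regulators, −0.51 for other outputs, −0.10 for other immediate-early genes and −0.002 for the cascade, and 1 gene, Nr4a3, is red in the middle panel.

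The immediate-early genes other than Egr1 split in direction, with 4 higher and 4 lower of 19 tested and a median of −0.10. The share called was 42.1%, beside 23.1% of all genes, a difference that was not tested. Nr4a2, an orphan nuclear receptor gene, stood at 153.9, 171.7, 118.4 and 105.8 CPM in Ptgs+/+ tumors, at 31.3, 18.7 and 24.6 in Ptgs-/- tumors and at 31.1, 29.0 and 26.2 with NK cells depleted, and fell by 2.53 in Ptgs-/- tumors (adjusted p = 3.95e-05, edgeR). Fosl2, which encodes the AP-1 subunit FRA2, fell by 0.80 (adjusted p = 0.00158, edgeR). Atf3, a stress-induced factor gene, rose by 1.94, from a mean of 6.46 to 25.99 CPM (adjusted p = 0.00093, edgeR), and Jund rose by 0.77 (adjusted p = 0.00203, edgeR).

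Of 27 genes of the cascade itself, 6 differed, 3 higher and 3 lower, with a median of −0.002. The 6 are 22.2% of the list, near the 23.1% of all genes, so the count says nothing particular of the cascade. Rps6ka1, which encodes the ERK-activated kinase RSK1, and Ksr1, a scaffold gene, rose by 0.69 and 0.43 (adjusted p = 0.0117 and 0.0411, edgeR). Rras2 and Hras, both RAS family genes, fell by 0.54 and 0.41 (adjusted p = 0.0074 and 0.0261, edgeR). Braf, singled out for its mutation in this line, averaged 21.05 CPM in Ptgs+/+ tumors, with a log2 fold change of −0.02 that did not pass.

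With NK cells present against depleted, 1 gene of the 4 lists passed, in the immediate-early list: Nr4a3, at 9.45, 6.83 and 8.12 CPM in Ptgs-/- tumors and 3.42, 4.06 and 4.67 in NK-depleted Ptgs-/- tumors (log2 fold change 0.97, adjusted p = 0.0336, edgeR). None of the other feedback regulators, other outputs or cascade genes was called by edgeR, and 1, 2 and 0 of them had an unadjusted p under 0.05. Over all genes 1.44% passed edgeR's test in this comparison. DESeq2 also called 1 gene over the 4 lists. The median log2 fold changes were −0.06, −0.13, 0.01 and 0.01 for feedback regulators, outputs, immediate-early genes and cascade. The Nr4a3 call was lost in the first code alone and without Ptgs+/+ replicate 2 or 4, Ptgs-/- replicate 3 or any 1 of the NK-depleted tumors.

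In NK-depleted Ptgs-/- against Ptgs+/+ tumors, 5 of 21 feedback regulators were called (2 higher and 3 lower), 3 of 22 outputs (1 and 2), 6 of 19 immediate-early genes (2 and 4) and 2 of 27 cascade genes (both lower). These are 23.8%, 13.6%, 31.6% and 7.41% of the lists, beside 12.5% of all genes, so the share of outputs was near that of all genes and the share of cascade genes below it. Ereg fell by 1.87 (adjusted p = 0.000195, edgeR) and Nr4a2 by 2.29 (adjusted p = 7.99e-05, edgeR), while Dusp10 rose by 1.03 and Atf3 by 1.14 (adjusted p = 0.0316 and 0.0263, edgeR). Il17rd, a feedback gene whose product is also called SEF, rose by 0.57 and Ccnd2 by 0.57 (adjusted p = 0.0358 and 0.0163, edgeR). Dusp1 fell by 0.92 and Spred3 by 0.75 (adjusted p = 0.0315 and 0.0101, edgeR). Nr4a3 fell by 1.12, Fosl2 by 0.72 and Etv1 by 0.63 (adjusted p = 0.0026, 0.00424 and 0.0112, edgeR). Of the cascade, Rras2 fell by 0.81 and Shc1, an adaptor gene, by 0.45 (adjusted p = 0.00124 and 0.0306, edgeR). In the first code alone, 20 genes of the 4 lists were called in Ptgs-/- against Ptgs+/+ tumors, in place of 29, and 14 in NK-depleted Ptgs-/- against Ptgs+/+ tumors, in place of 16.

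Marker transcripts of proliferation and of several cell types also differed between the groups. Such levels cannot tell more cells of a type from more RNA per cell. Of all genes 23.1% were called in Ptgs-/- and 12.5% in NK-depleted Ptgs-/- against Ptgs+/+ tumors. From flow cytometry of early tumors with and without COX, the study describes leukocytes other than neutrophils and NK cells as unchanged or less consistently changed. The marker sums below were not compared with those cell counts. The summed level of 10 proliferation markers was 2154 to 3012 CPM in Ptgs+/+ tumors, 1184 to 1346 in Ptgs-/- tumors and 1251 to 1811 with NK cells depleted, and 10, then 7, of the 10 were lower in these groups than in Ptgs+/+ tumors. Of 11 neutrophil markers tested, 7 were lower in Ptgs-/- than in Ptgs+/+ tumors, with sums of 130.4 to 171.9 against 491.1 to 737.5 CPM (190.2 to 241.7 with NK cells depleted). Mmp9 made up much of the sums in Ptgs+/+ tumors, with means of 33.5 and 290 CPM in Ptgs-/- and Ptgs+/+ tumors. In Ptgs-/- tumors Il1r2, which was not called, averaged more than Mmp9, at 51.8 CPM. Csf3r went the other way, higher in every Ptgs-/- tumor but not called (log2 fold change 0.61). Retnlg was called higher in NK-depleted than in Ptgs+/+ tumors (1.77, adjusted p = 0.0139, edgeR). In Ptgs-/- against Ptgs+/+ tumors, of 12 macrophage markers 10 were higher, of 11 NK cell markers 10, of 9 T cell markers 8 and of 10 fibroblast markers 4, while 4 of 10 endothelial markers were lower. Macrophage sums were 3296 to 4115, 5619 to 8215 and 5307 to 5471 CPM, and fibroblast sums 7844 to 10840, 13860 to 17050 and 11110 to 14020 CPM, in Ptgs+/+, Ptgs-/- and NK-depleted tumors. NK cell sums were 20.9 to 49.7, 111.4 to 210.9 and 12.1 to 13.8 CPM, with Ncr1 and Prf1 at 0 in every NK-depleted tumor. T cell sums were 5.61 to 8.79, 19.6 to 49.7 and 16.0 to 21.7 CPM, and endothelial sums were 495.7 to 574.7, 182.9 to 436.4 and 316.4 to 473.1 CPM. Skeletal muscle markers summed to 37.7 to 192.9 CPM in Ptgs+/+ tumors, 126.5 to 412.4 in Ptgs-/- tumors and 2534 to 6095 with NK cells depleted, where all 10 were higher than in Ptgs+/+ tumors. Adipocyte sums ranged from 926.7 to 9073 CPM over all tumors with none of 8 genes called, and 1 of 7 keratinocyte markers was lower in Ptgs-/- tumors. The part of these shifts in the levels of the 10 genes was not tested.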

How the data were processed

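RNA of 10 bulk tumors was sequenced with Lexogen's QuantSeq 3′ kit. The authors trimmed reads with BBDUK (12 leading bases and contaminants), fqtrim and cutadapt (homopolymer tails), mapped them with STAR on GRCm38 and used featureCounts with Ensembl genes, and they deposited raw counts per gene for each tumor, unpooled. The kit is the forward-strand version, but the strand setting of the counting and the handling of multiply mapped reads and molecular identifiers are not given in the sources used here, so overlapping, antisense and near-identical genes are uncertain. The submitters' processing notes also name bcl2fastq and edgeR. Of 45706 identifiers, 45143 were named from GENCODE M21 on GRCm38, the source of coordinates, and 563 were not.

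Counts were tested in R 4.3.3 with edgeR 4.0.16: filterByExpr kept 14550 genes, TMM set library factors (0.963 to 1.04), and the 3 groups entered 1 quasi-likelihood model with all 10 libraries, adjusted by Benjamini-Hochberg. The study's methods add an absolute log2 fold change of 1.5. Library totals of 8150556 to 12839174 counts set the precision. Groups and replicates came from the titles, in which 2 Ptgs+/+ tumors carry the number 2; the one with the second code is replicate 4 here. The meaning of the codes is not given in the sources used here.

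The 10 genes and all lists were chosen with earlier results of these data known, and lists were written from general knowledge. Named genes are the 10, Ptgs1, Ptgs2, Ncr1, up to 4 genes per list and comparison that were called with libraries not overlapping (by size), and the 5 closest to Dusp6 in log2 CPM (prior count 2). The pipeline was tested on simulated data. Alternatives were DESeq2 1.42.0, library size or RLE factors, other filters, a likelihood ratio test, the code as a term, tumors of the first code, a fit of 2 groups, a block for the number in the label, every library omitted in turn, and, added after seeing the data, both libraries that stood apart left out. Replicates differed by 5.56 to 21.1 in chi-square per degree of freedom, so none was a second reading of the same library. This value cannot show whether each came from a separate mouse.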

Additional observations from a re-analysis of the deposited data

Results flagged for a closer look

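In a group of 4 tumors, a value was singled out when its gap to the nearest other, divided by the range of the group, passed Dixon's 95% critical value for that size. Chance does this in about 1 in 20 groups. Over the Ptgs+/+ tumors, the group of that size, 34 genes named in the report were examined. Of these 2 were singled out, close to what that rate gives by chance, and both were in Ptgs+/+ replicate 3. Dusp6 stood there at 276 CPM, below 472.5 to 502.4 CPM in the other 3 tumors, with a gap of 0.868 of the range. Hras stood there at 73.5 CPM, above 56.6 to 58.8 CPM in the other 3, with a gap of 0.873. Replicate 3 is also the library with the most genes under 50% of the lowest other library (191) and the Ptgs+/+ tumor with the least Ptgs2 (94.4 CPM). Whether these values share a cause was not tested. With this tumor left out, the log2 fold change of Dusp6 in NK-depleted Ptgs-/- against Ptgs+/+ tumors was −0.55 in place of −0.39.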

How the results depend on the processing

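Over the 10 genes and 3 comparisons, 561 values under alternatives kept their direction and their side of the threshold, 31 lost the call, 5 gained it and 33 changed sign, none of the last past the test (the largest of them −0.112). The count of the 10 genes called in Ptgs-/- against Ptgs+/+ tumors was 4, and it was 1 in the first code alone, 0 with the size threshold, and 1 to 4 with each library left out. Against NK-depleted Ptgs-/- tumors it was 0, and it was 2 without both libraries that stood apart, and 0 to 1 with each library left out. In NK-depleted Ptgs-/- against Ptgs+/+ tumors it was 2, and it was 0 with the size threshold and 0 to 3 with each library left out. The median of the 10 in the first comparison was −0.332 to −0.0476 with each library left out, the smaller without Ptgs-/- replicate 2. Over the other 4 lists, the 29 calls of the first comparison became 17 to 36 with each library left out, 17 without Ptgs-/- replicate 2. The single call with NK cells present against depleted became 0 with at least 10 counts in every library, with the code as a term, in the first code alone, in a fit of only these 2 groups and with the replicate block, 7 without both libraries that stood apart, and 0 to 1 with each library left out. The 16 calls of the last comparison became 29 without both libraries that stood apart and 6 to 21 with each library left out, 6 without NK-depleted replicate 1, 8 without replicate 3 of that group and 9 without Ptgs+/+ replicate 1. The causes were not tested.

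Sign changes of values that did not pass were as follows. In Ptgs-/- against Ptgs+/+ tumors, library size alone gave 0.0262 for Spry4 and 0.0334 for Ccnd1, a filter of at least 10 counts in every library gave 0.0103 and 0.0167, and Etv5 became −0.0451 without both libraries that stood apart. Against NK-depleted Ptgs-/- tumors, Etv5 became 0.0173 with the code as a term and 0.00306 in the first code alone, and Spry2 became −0.0154 without both libraries that stood apart. In NK-depleted Ptgs-/- against Ptgs+/+ tumors, Etv4 became −0.0386 with the code as a term and −0.101 in the first code alone, where Egr1 became 0.00173. With each library left out, values in the first comparison ran from −0.113 to 0.0878 for Spry4, from −0.0803 to 0.0865 for Etv5, from −0.314 to 0.0143 for Fosl1 and from −0.135 to 0.0865 for Ccnd1. In the second they ran from −0.0236 to 0.216 for Dusp4, from −0.0265 to 0.245 for Spry2 and from −0.151 to 0.0697 for Etv5. In the last they ran from −0.112 to 0.154 for Etv4, from −0.0571 to 0.181 for Etv5 and from −0.187 to 0.0709 for Egr1.

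What tumors with the same number share is not given in the sources used here. Of 11 same-numbered pairs, 4 had deviations from their group means that correlated over 0.1 (range −0.244 to 0.355). Pairs with different numbers were not set beside them, so these values cannot show whether the numbers mark pairs. With the number as a replicate block, 4, 0 and 2 of the 10 genes were called in the 3 comparisons, with medians of −0.196, −0.212 and −0.0534, and Etv4 in the last became −0.00407. The other lists then had 28, 0 and 19 calls.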
